A study of Homo sapiens with 3 samples.

Results

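The comparison described here sets the 2 USP16 siRNA libraries of an RNA-seq study against each other. The cells were NCI-H23, an established line from a human lung adenocarcinoma. Its members are the genes with at least 100 counts in at least 1 of these 2 libraries, matched by Ensembl gene identifier. This rule took 11716 of the 50868 genes counted, and they held 98.7% of the counts in each USP16 siRNA library. Of the members, 10725 reached 100 counts in both libraries, 433 in library 1 alone and 558 in library 2 alone.

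The study had 3 libraries, 1 from cells given control siRNA and 2 from cells given siRNA against USP16, all made from total RNA with an mRNA library kit. The USP16 siRNA libraries carry the numbers 1 and 2 in their titles. The labels do not say whether these numbers stand for different siRNAs or for different cultures, and the count column of the second library carries the number 6 in its header. The duration of the treatment is not given in the sources used here. With 1 library a side, every difference below is a description of these libraries, and none has a replicate check. The control library was read only to say which of the USP16 siRNA libraries stood farther from it.

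USP16 encodes a deubiquitinase that takes ubiquitin off histone H2A. Polycomb repressive complex 1 places this ubiquitin, and the mark is associated with repressed genes and is removed from chromatin as cells enter mitosis. A small interfering RNA pairs with its target mRNA and guides Argonaute to cut it.

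The libraries held 14007161 counts in the control, 13956382 in USP16 siRNA library 1 and 15071179 in library 2. Between 23127 and 24616 genes had counts above 0, and the share of mitochondrial transcripts was 8.56% (control), 7.41% (library 1) and 7.33% (library 2). The USP16 siRNA libraries differed from each other by more than counting error, with a chi-square statistic of 62.5 per degree of freedom. Levels are given in CPM, read counts relative to the library size after scaling by trimmed means of M-values (TMM), and log2 ratios were taken with a prior count of 2. Where 3 counts follow a gene, their order is control, USP16 siRNA library 1, USP16 siRNA library 2. Of the 6 epithelial markers, KRT8 and KRT18 had many counts (KRT18 had 2903, 1986 and 3364 counts), and the other 4 had few: CDH1 had 142, 39 and 93 counts, EPCAM 38, 161 and 232, KRT19 62, 55 and 52, and KRT7 81, 23 and 49. Of the 4 mesenchymal markers, VIM had 20066, 19284 and 7957 counts and COL1A1 918, 881 and 700. PDGFRB, with 42, 40 and 72, was highest in library 2, and DCN had 0, 2 and 2. The lung surfactant genes SFTPB and SFTPC were at 0 in all 3 libraries. The T cell marker CD3E was at 0, the leukocyte marker PTPRC had at most 1 count, and CD68 had 78, 144 and 130.

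USP16 lies at chr21:29024629-29054488 on the plus strand of hg38. It had 632 counts in the control, 109 in library 1 and 245 in library 2. Scaled, the control stood at 47.5 CPM, with an exact Poisson 95% interval of 43.8 to 51.3. Library 1 stood at 7.69 CPM (6.31 to 9.28) and library 2 at 15.8 CPM (13.8 to 17.9). The targeted transcript was below the control in both USP16 siRNA libraries, and no 2 of the 3 counting intervals overlapped. Against the control the log2 difference was -2.60 in library 1 and -1.58 in library 2. Library 2 held 2.05 times as much USP16 as library 1 (exact binomial 95% interval 1.63 to 2.59). These intervals, like all intervals below, cover counting error only.

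Most members were close between the libraries, and a minority stood well apart. The log2 ratio of library 2 to library 1 had a median of -0.02 and an SD of 0.68 over the members. Of all members, 8110 (69.2%) lay within 1.5-fold. In library 2, 559 members were at least 2-fold higher (4.77% of those compared) and 774 were at least 2-fold lower (6.61%), or 1333 in either direction (11.4%). At least 4-fold, the counts were 52 higher and 74 lower, and at least 8-fold, 8 higher and 12 lower. Members with few counts were more scattered: the SD was 0.84 over the 20% of members with the lowest counts and 0.60 over the 20% with the highest. For 315 of the higher and 456 of the lower members the whole counting interval of the ratio lay beyond 2-fold.

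**Figure D1:**
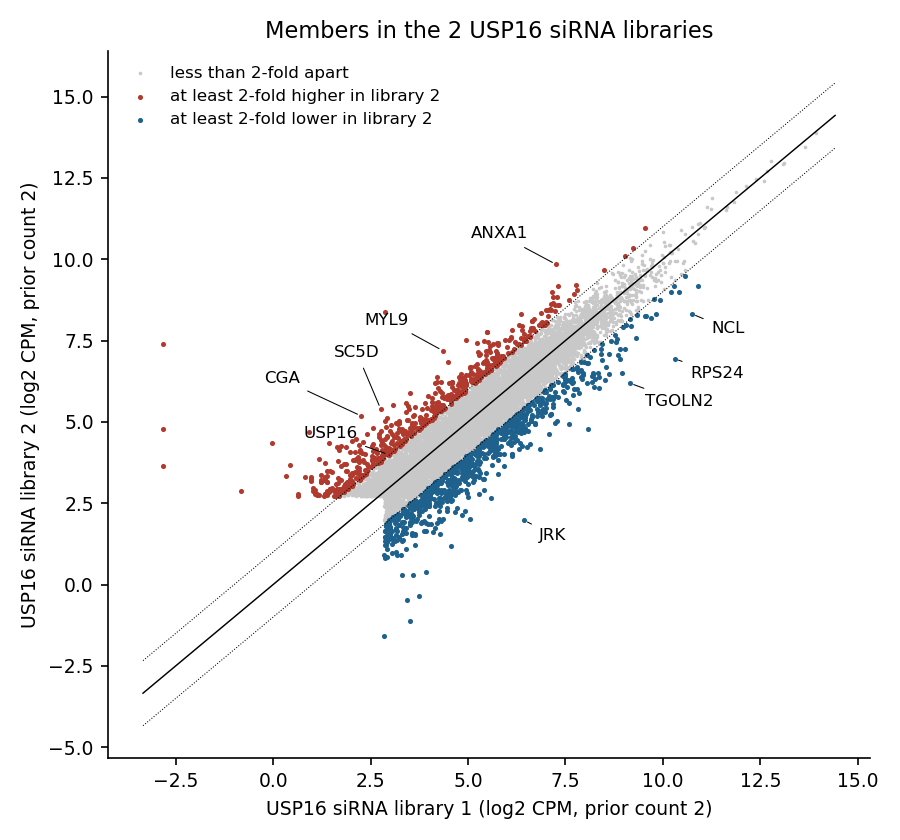
Level of each of the 11716 members in USP16 siRNA library 1 (x axis) and library 2 (y axis), both in log2 CPM. The solid line marks equal levels and the dotted lines a 2-fold difference; 559 members lie at or above the upper dotted line and 774 at or below the lower one, among them RPS24, NCL and JRK.

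Set beside the control, library 2 stood farther off than library 1. The log2 differences from the control had an SD of 0.57 for library 1 and 0.70 for library 2. In library 1, 426 members were at least 2-fold above the control (3.64%) and 430 at least 2-fold below it (3.67%), 856 in all (7.31%). In library 2, 624 were above (5.33%) and 879 below (7.5%), 1503 in all (12.8%). Both comparisons use the same control library, and each also shares a library with the comparison between the siRNA libraries. Their counts are therefore linked and are given side by side only.

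The 1333 members that differed 2-fold between the siRNA libraries were sorted by which library departed 2-fold from the control. For 608 of them (45.6%) library 2 alone did so, for 270 (20.3%) library 1 alone, for 25 both in the same direction, for 12 both in opposite directions, and for 418 (31.4%) neither. The split was not even between directions. Among the 774 members lower in library 2, library 2 alone departed for 451 (58.3%) and library 1 alone for 87 (11.2%). Among the 559 members higher in library 2, the numbers were 157 (28.1%) and 183 (32.7%). The largest single class thus consisted of transcripts that were near the control in library 1 and below it in library 2, with class medians of -0.04 and -1.44 on the log2 scale.

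**Figure D2:**
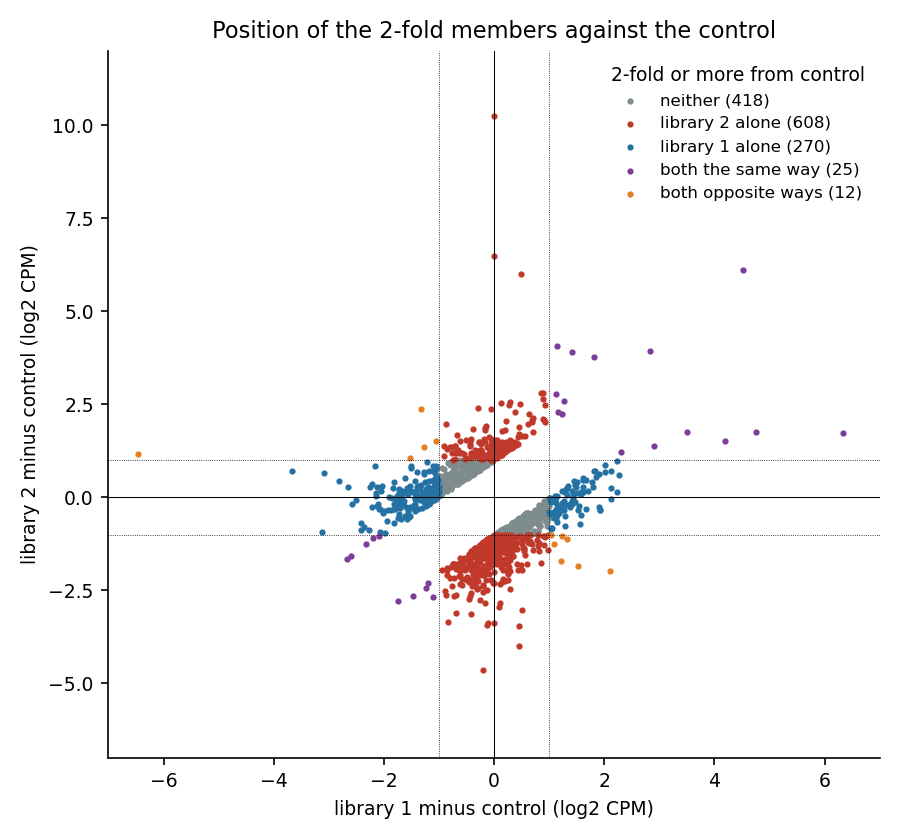
The 1333 members at least 2-fold apart between the siRNA libraries, placed by their log2 CPM difference from the control in library 1 (x axis) and library 2 (y axis), 1 point a gene. Dotted lines mark 2-fold; the class with library 2 alone beyond 2-fold holds 608 genes, most of them below the lower horizontal line, and library 1 alone 270.

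The genes below were ranked by ratio among members with a mean of at least 250 counts that share no exon on the same strand with another gene. The highest of them in library 2 encode a hormone subunit, proteins of the contractile apparatus, a sterol enzyme and an annexin. CGA, the alpha subunit shared by the glycoprotein hormones, had 27, 66 and 563 counts, a ratio of 7.77 between the siRNA libraries (exact binomial 95% interval 6.02 to 10.2). It was above the control in both, by 1.15 and 4.07 on the log2 scale. MYL9, a regulatory light chain of non-muscle and smooth muscle myosin, had 495, 287 and 2273 counts, a ratio of 7.22 (6.38 to 8.19). ANXA1, a calcium-dependent phospholipid-binding protein, had 5835, 2170 and 14253 counts, a ratio of 5.99 (5.72 to 6.26). Its level was below the control in library 1 and above it in library 2.

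For other genes at the top, library 1 was the one that departed. UHMK1, a serine/threonine kinase, had 4353, 528 and 2661 counts, log2 differences from the control of -3.13 in library 1 and -0.93 in library 2. NUDT4, a hydrolase of diphosphoinositol polyphosphates, had 638, 118 and 714 counts, and MRPL19, a mitochondrial ribosomal protein, 1081, 260 and 1299. In library 2 both were near the control, with log2 differences of -0.06 and 0.04. TSPO, an outer mitochondrial membrane protein, had 420, 95 and 410 counts. Of the 20 highest ratios, library 2 alone departed 2-fold from the control for 10, library 1 alone for 6, both in the same direction for 1 and both in opposite directions for 3. DAG1, which encodes dystroglycan (489, 635 and 3398 counts), and CTH, the cystathionine cleavage enzyme of cysteine synthesis (103, 153 and 700 counts), belonged to the first class.

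The lowest ratios were larger in size and mostly came from library 2. JRK, on chromosome 8, had 837, 1219 and 59 counts and was 22.7-fold lower in library 2 than in library 1 (17.5 to 30.0). RPS24, a protein of the small ribosomal subunit, had 16897, 17886 and 1912 counts and was 10.3-fold lower (9.79 to 10.8). TGOLN2, a membrane protein that cycles through the trans-Golgi network, had 6992, 8029 and 1131 counts and was 7.79-fold lower (7.32 to 8.30). In each of these genes library 1 lay within 0.45 log2 units of the control. SPIN1, a reader of methylated histone H3, had 1705, 1624 and 275 counts, and NCL, which encodes nucleolin, had 20622, 24209 and 4975. TPMT, a thiopurine methyltransferase, had 672, 602 and 115 counts, and GALNT2, which starts mucin-type O-glycans, had 3100, 4638 and 1023. Of the 20 lowest, library 2 alone departed 2-fold from the control for 15.

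Some of the lowest ratios belonged to genes higher in library 1 than in the control. IER2, an immediate-early gene, had 528, 2144 and 484 counts, and SLC7A11, the cystine/glutamate antiporter, had 332, 1352 and 309. For IER2 and SLC7A11 library 2 was within 0.35 log2 units of the control. HIPK2, a nuclear kinase, had 277, 685 and 97 counts and departed in opposite directions.

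Genes that departed 2-fold from the control in opposite directions were few, 12 in all. Higher in library 2 and lower in library 1 were ANXA1, ANXA3 (17, 6 and 112 counts), TPM1, SC5D and RP11-468E2.1. The reverse held for HIPK2, ZNF629, ZCCHC24, MMP1, ARMCX5, FSBP and ZNF816. MMP1, interstitial collagenase, had 83, 211 and 46 counts. RP11-468E2.1, ARMCX5, FSBP and ZNF816 share exons with a neighbouring gene, so the assignment of their reads is uncertain.

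**Figure D3:**
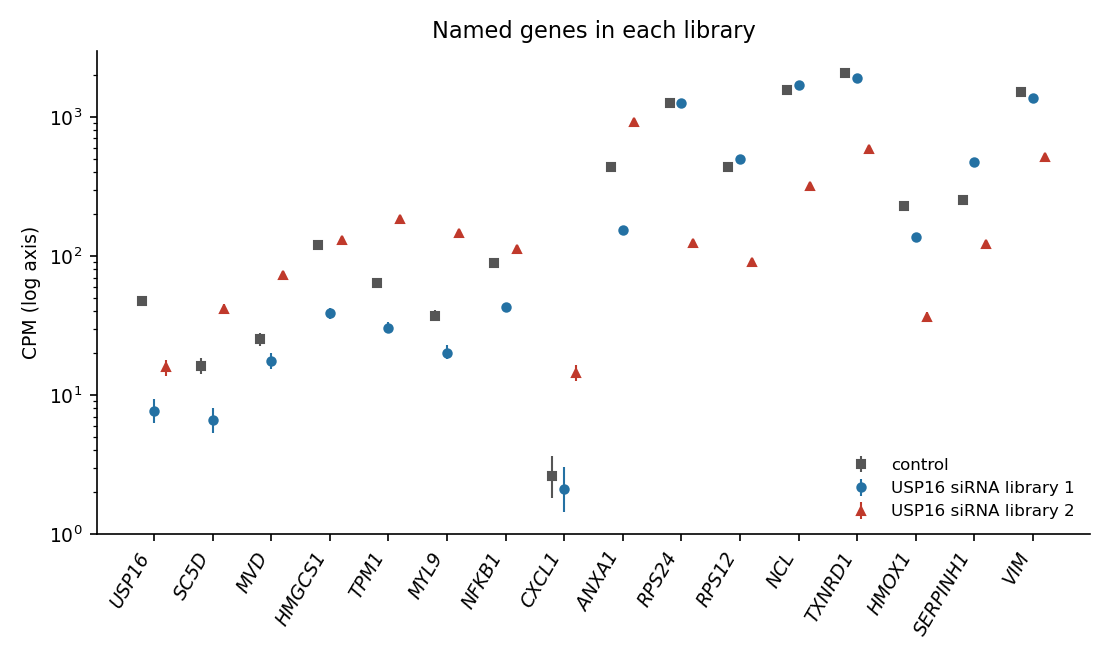
CPM on a log axis of 16 named genes in the control, USP16 siRNA library 1 and USP16 siRNA library 2, 1 library each; bars are exact Poisson 95% intervals and are often smaller than the symbols. In RPS24, RPS12, NCL, TXNRD1 and VIM the control and library 1 lie together with library 2 below, in HMGCS1 and NFKB1 the control and library 2 lie together with library 1 below, and in SC5D, TPM1 and ANXA1 the siRNA libraries lie on either side of the control.

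Ranked by the difference in CPM rather than by ratio, abundant genes came first; ANXA1, NCL and RPS24 were in both rankings. The largest gains in CPM from library 1 to library 2 were in TFPI2, a secreted protease inhibitor (33238, 34544 and 58956 counts), in EEF1A1P5, an elongation factor pseudogene whose reads cannot be told from those of its parent, and in SCD, the stearoyl-CoA desaturase (32049, 10480 and 30900). SCD stood at 739 CPM in library 1 against 2410 in the control and 1990 in library 2, so library 1 was the one apart. FTL, the ferritin light chain, had 39116, 14443 and 28593 counts. The largest losses were in the mitochondrial transcript MT-CO1, whose log2 ratio was -0.18, in NCL, and in TXNRD1, the cytosolic thioredoxin reductase (27394, 26943 and 9106 counts). VIM, the intermediate filament protein of mesenchymal cells, had 20066, 19284 and 7957 counts, a level of 1360 CPM in library 1 and 512 CPM in library 2.

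Genes of cholesterol synthesis stood higher in library 2 than in library 1. SREBP2, encoded by SREBF2, is the transcription factor that switches this pathway on when membrane sterol is low, and INSIG1 holds it in the endoplasmic reticulum when sterol is plentiful. Of 24 genes listed, 23 were members, 9 of them were at least 2-fold higher in library 2 (39.1% of the list) and 0 at least 2-fold lower. Over all members these shares were 4.77% higher and 6.61% lower, and every list count below is to be read against them. A gene that reached 100 counts in 1 siRNA library alone was a member only through it, so the minimum count favoured its direction. SC5D, with 94 counts in library 1, was such a gene in this list. The median log2 ratio of the list was 0.88, against -0.02 over all members. The list lay on both sides of the control, with 19 of 23 genes below it in library 1 (median -0.28) and 20 of 23 above it in library 2 (median 0.58).

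The members ran along the pathway. HMGCS1, which makes HMG-CoA from acetyl-CoA and acetoacetyl-CoA, had 1587, 547 and 2041 counts, with library 1 below and library 2 near the control. MVD, which makes isopentenyl diphosphate, had 335, 250 and 1142 counts and a log2 ratio of 2.05. Of the late enzymes, MSMO1, the C4-methylsterol oxidase, had 1315, 649 and 2746 counts, and SC5D, the lathosterol oxidase, had 216, 94 and 650. The regulators had the same order as most enzymes: SREBF2 had 2211, 1183 and 3494 counts and INSIG1 327, 336 and 1127. The exceptions with a ratio below 0 were EBP (162, 263 and 237 counts), PMVK (347, 599 and 560) and TM7SF2 (245, 215 and 212).

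SREBP proteins bind the sterol regulatory element, whose core can be written CACNCCA. The 250 bases before each start in the RefSeq promoter table (GRCh38.p14) were searched for these letters on both strands. Windows were found for 18 of the 23 genes, and 9 of the 18 held a match. Counted by window, the match was in 9 of 23 (39.1%), against 14.7% of 35097 windows of all genes. It was in 5 of the 7 genes with a window that were at least 2-fold higher in library 2, and also in EBP and TM7SF2, whose ratios were below 0. The longer form TCACNCCAC was in 1 window of the list, that of SREBF2, and in 0.883% of all windows. A match is a run of letters and not a measured binding site. Shown here are stretches of 57 bases from 3 genes at least 2-fold higher in library 2, with the match in capitals; for INSIG1 it reads as the reverse complement.
MSMO1, chr4:165327489-165327545, plus strand: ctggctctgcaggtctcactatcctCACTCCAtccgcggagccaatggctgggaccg
INSIG1, chr7:155297646-155297702, plus strand: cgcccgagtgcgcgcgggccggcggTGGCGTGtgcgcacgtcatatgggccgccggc
SREBF2, chr22:41832948-41833004, plus strand: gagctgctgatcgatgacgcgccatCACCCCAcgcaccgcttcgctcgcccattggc

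Fatty acid synthesis genes, many of which SREBP1 controls, showed a related order with library 1 as the low one. All 13 listed genes were members, all 13 had a ratio above 0, 4 were at least 2-fold higher in library 2 and 0 lower. The list median was -0.61 against the control in library 1 and 0.09 in library 2. ACSL4, an acyl-CoA synthetase that prefers arachidonate, had 591, 399 and 1267 counts. FADS2, the delta-6 desaturase, had 347, 158 and 433, and its level in library 2 was near the control. FADS2 shares exons with FEN1, and when the counts of both were added its log2 ratio went from 1.31 to -0.54, so its place among the 4 is uncertain.

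Contractile and actin-linked genes were also higher in library 2. Many are targets of serum response factor (SRF), which is activated through its MRTF cofactors when actin polymerizes. Of 22 listed genes, 18 were members, with 5 at least 2-fold higher, 1 at least 2-fold lower and a median ratio of 0.69. TPM1 and TPM2 encode tropomyosins, which wind along actin filaments. TPM1 had 849, 432 and 2839 counts and TPM2 2961, 2219 and 7151. VCL, which links integrin complexes to actin, had 5838, 2709 and 6657 counts, so library 1 was below the control and library 2 near it. MYLK, the kinase that phosphorylates myosin light chains, went the other way with 159, 182 and 82 counts. Promoter windows were found for 13 of the 18 members, and 6 of the 13 held a CArG box, the element SRF binds. Counted by window, the match was in 6 of 22 (27.3%), against 1.16% of all windows. None of these was the window of a gene at least 2-fold higher in library 2: the match was in 0 of the 4 such genes with a window.

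Inflammatory genes had higher counts in library 2 as well. Of 28 NF-kB subunits and targets, 21 were members, 7 were at least 2-fold higher in library 2 and 0 lower, with a median ratio of 0.71. The list was below the control in library 1 (median -0.59) and close to it in library 2 (-0.09). NFKB1, the p105/p50 subunit, had 1186, 605 and 1765 counts, and the inhibitor TNFAIP3 had 589, 258 and 645. Of the 4 chemokines in the list, CXCL1 (35, 30 and 225 counts), CCL20 (133, 91 and 360) and CXCL8 (88, 80 and 240) were above the control in library 2. The other, CCL2, had the lowest ratio of the list and was below the control in both, with 300, 139 and 79 counts. CXCL1, CCL20 and CXCL8 were members through library 2 alone and CCL2 through library 1 alone, so the minimum count favoured each direction.

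Interferon-stimulated genes, which can respond to double-stranded RNA, showed a smaller difference. Of 42 listed, 22 were members, 2 were at least 2-fold higher in library 2 (9.09%, against 4.77% over all members) and 0 lower, with a median ratio of 0.60. The median was -0.49 against the control in library 1 and -0.04 in library 2. MX1, an antiviral GTPase, had 72, 67 and 252 counts, and PSMB9, an immunoproteasome subunit, 190, 102 and 247. MX1 was a member through library 2 alone, so the minimum count favoured its direction. Among 17 genes of RNA sensing and RNA interference 1 was at least 2-fold higher (5.88%, against 4.77%) and 2 lower (11.8%, against 6.61%), with a median ratio of 0.26. The higher one was AGO1 (560, 510 and 1148 counts). The lower ones were TNRC6C, a GW182 protein that partners Argonaute (206, 367 and 124), and the microRNA processor DROSHA (884, 1938 and 995). AGO2, the Argonaute protein that cuts targets, had 6875, 4756 and 4672 counts and did not differ by 2-fold.

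Epithelial genes that were members, 12 of 24 listed, had higher levels in library 2 without reaching 2-fold. All 12 members of the list had a ratio above 0, from 0.08 in CLDN3 to 0.77 in SPINT1, with a median of 0.61. The median was -0.42 against the control in library 1 and 0.06 in library 2. OCLN, a tight junction protein, had 550, 302 and 531 counts. The adhesion molecule EPCAM had 38, 161 and 232, above the control in both. Of the epithelial markers under the minimum count, CDH1 went from 39 counts in library 1 to 93 in library 2. KRT7 went from 23 to 49 and KRT19 from 55 to 52. The shared direction holds for this list only. ESRP2, an epithelial splicing regulator kept in another list, had 123, 193 and 132 counts and a log2 ratio of -0.67.

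Growth-factor response genes were mixed. Of 23 AP-1 and immediate-early genes, 4 were at least 2-fold higher in library 2 (17.4%, against 4.77% over all members). IER2 was at least 2-fold lower (4.35%, against 6.61%), and the median ratio was 0.36. MYC, the growth-promoting transcription factor, had 40, 50 and 201 counts. MYC was a member through library 2 alone, so the minimum count favoured its direction. CTGF, now called CCN2, a secreted target of YAP and of SRF, had 1050, 475 and 1437, and YAP1, the coactivator itself, 1634, 873 and 2838. ERK feedback genes had a median ratio of 0.16: SPRY4, an inhibitor of receptor tyrosine kinase signalling, had 5586, 1980 and 5393 counts, and the phosphatase DUSP2 793, 559 and 2138. EGFR, the receptor upstream of this pathway, had 2960, 2473 and 930 counts and was lower in library 2.

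**Figure D4:**
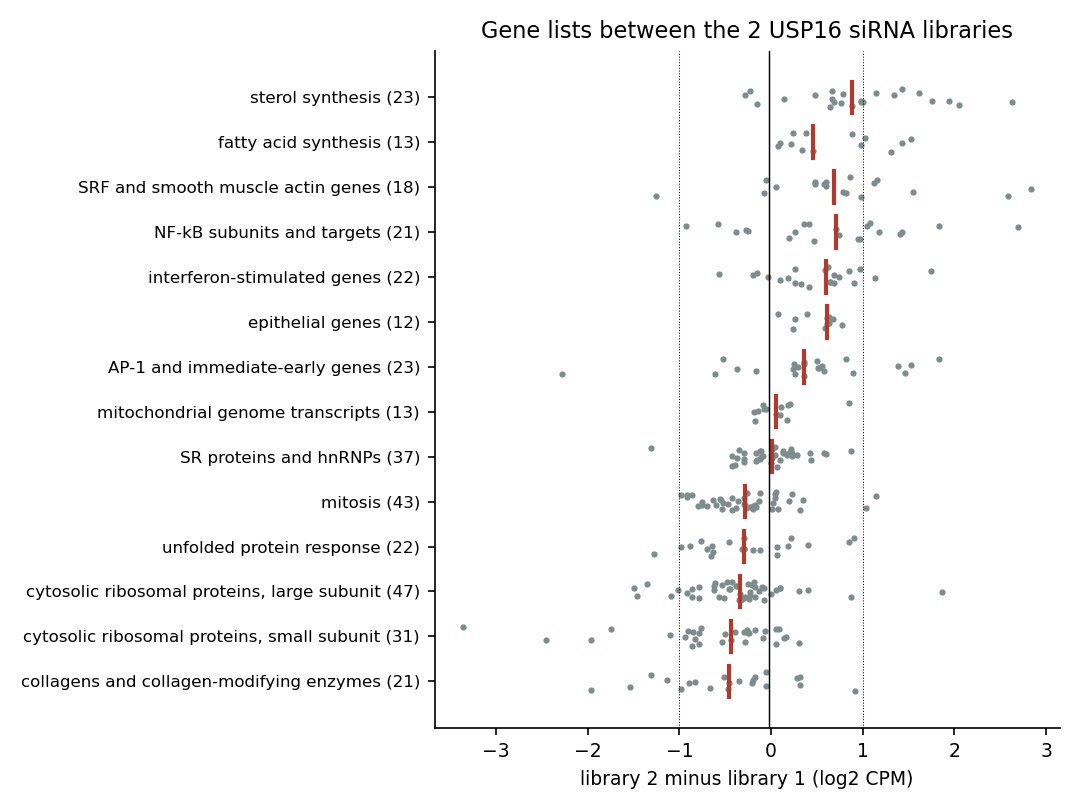
Log2 ratio of library 2 to library 1 for the members of 14 gene lists, 1 point a gene, with the number of members in brackets. Red bars mark list medians, the solid line the median of all members (-0.02) and dotted lines 2-fold; the medians run from 0.88 for sterol synthesis to -0.46 for the collagen list.

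Ribosomal protein genes were lower in library 2, with a few far below the rest. These genes encode subunits that assemble in fixed proportion and are often regulated together. Of the small subunit genes 31 of 32 were members, with 0 at least 2-fold higher, 5 at least 2-fold lower (6.61% over all members) and a median ratio of -0.44. Of the 47 large subunit genes 1 was higher and 5 lower, with a median of -0.34. In library 1 the list medians were at 0.04 and 0.05 against the control, and in library 2 at -0.43 and -0.28. The summed level of the small subunit genes was 12900 CPM in the control, 13100 in library 1 and 8350 in library 2.

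Within the ribosome the differences were uneven. RPS24, RPS12 (5785, 7075 and 1408 counts), RPS23 (3585, 4625 and 1299), RPS15 (5259, 4075 and 1331) and RPS4X (15945, 17589 and 9023) were the 5 small subunit genes beyond 2-fold. RPS13, with 2395, 2556 and 2668 counts, and RPS2, with 9419, 8109 and 11037, were near the control in library 2. Of the large subunit, RPL3 had 11222, 12767 and 4951 counts and RPL14 2442, 2630 and 1046. RPLP1, a protein of the ribosomal stalk, was the exception: it had 7007, 2265 and 9108 counts, a log2 ratio of 1.87, and library 1 was the one below the control.

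Processed pseudogenes of RPS24 and RPS23 were also lowest in library 2. RPS24P8 had 139, 212 and 18 counts and RPS23P8 286, 358 and 120. Outside the ribosome, PSMC1P1, a copy of the proteasome ATPase gene PSMC1, had 2782, 3173 and 648 counts beside 766, 732 and 237 for PSMC1. How reads that match both copies were assigned is not given in the sources used here, so reads of parent and copy cannot be told apart.

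Genes of ribosome assembly did not differ as a group. The 50 listed genes had a median ratio of 0.06, with 0 at least 2-fold higher and 5 lower. The 5 were NCL, RRS1, EBNA1BP2, TCOF1 and LTV1. RRS1, a factor for the large subunit, had 1213, 1286 and 289 counts, and EBNA1BP2 3484, 4122 and 1148. TCOF1, which acts in transcription of ribosomal DNA, lay on either side of the control (2948, 5548 and 2135), with log2 differences of 0.82 in library 1 and -0.69 in library 2. NPM1, the abundant nucleolar protein nucleophosmin, had 16501, 16693 and 18181 counts and was level.

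Collagen genes were lower in library 2 than in library 1, and the list lay above the control in library 1. Of 30 genes for collagens and their modifying enzymes, 21 were members, 0 at least 2-fold higher and 4 lower (6.61% over all members), with a median ratio of -0.46. The median was 0.57 against the control in library 1 and -0.08 in library 2. SERPINH1, the collagen chaperone, had 3340, 6739 and 1903 counts and lay on either side of the control, by 0.92 and -1.04. COL6A1, a chain of type VI collagen, had 620, 1653 and 624, and COL5A1, of type V, 93, 404 and 177. After the ratios were centred by GC content the list median was -0.26. Basement membrane and matrix glycoproteins, a list of 20 members, were below the control in both libraries (medians -0.14 and -0.16). Their median ratio was -0.21, and -0.02 after GC centring, with 0 at least 2-fold higher and 2 lower.

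Proteases and their inhibitors in the matrix were split. Of 24 listed, 15 were members, 2 at least 2-fold higher and 5 lower, with a median ratio of -0.43 and medians of -0.18 and -1.04 against the control. The plasminogen activators were the higher ones: PLAT had 215, 63 and 302 counts and PLAU 304, 59 and 218, with library 1 below the control. PLAT and PLAU were members through library 2 alone. MMP1, among the lower genes with 83, 211 and 46 counts, was a member through library 1 alone. The minimum count thus favoured each direction. MMP14, a membrane-bound metalloprotease, had 843, 988 and 356.

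Oxidative stress genes controlled by NRF2 included a few that were low in library 2. Of 25 members 0 were at least 2-fold higher and 5 lower (6.61% over all members). The median ratio was -0.14; it was -0.02 without genes that share exons and -0.22 after GC centring. HMOX1, which breaks down haem, had 3039, 1950 and 568 counts, and NFE2L2, which encodes NRF2, 953, 958 and 521. NFE2L2 shares exons, and its log2 ratio of -1.01 became -0.97 with the counts of its partner added. TXNRD1 and SLC7A11 are in this list too, the first low in library 2 and the second high in library 1. NQO1, a quinone reductase, had 14600, 8966 and 8286 counts, below the control in both.

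Other stress pathways differed in direction. The unfolded protein response, which expands the folding capacity of the endoplasmic reticulum, had a median ratio of -0.30 over 22 members, 15 of them below 0, with 0 at least 2-fold higher and 1 lower. That gene was HYOU1, a chaperone of the reticulum, with 4630, 6468 and 2913 counts, while HSPA5, the major chaperone there, had 20403, 25577 and 22756. Of 32 members among the targets of ATF4, the transcription factor of the integrated stress response, 4 were at least 2-fold higher (12.5%, against 4.77%) and 2 lower (6.25%, against 6.61%), with a median of 0.05. PPP1R15A, which reverses the translational arrest of that response, had 356, 338 and 1176 counts, and SHMT2, a mitochondrial enzyme of serine use, 1286, 2002 and 584. Among 30 p53 targets 21 had a ratio above 0, with a median of 0.18, and 3 were at least 2-fold higher and 1 lower. TNFRSF10B, a death receptor, had 3225, 976 and 3009 counts, and SFN, a 14-3-3 protein, 1390, 1389 and 502.

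Of 33 autophagy and lysosome genes, 3 were at least 2-fold higher in library 2 (9.09%, against 4.77% over all members) and 2 lower (6.06%, near the 6.61% over all members), with a median ratio of 0.08. GABARAPL1, which is joined to lipid on the autophagosome, had 1825, 1818 and 5370 counts, and ATG5, part of the machinery that joins it, 490, 251 and 678. The protease CTSB had 2679, 3250 and 919 counts, with library 1 near the control and library 2 below it.

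TGF-beta signalling genes included a receptor and a ligand that were low in library 2. Of 22 members 1 was at least 2-fold higher (4.55%, near the 4.77% over all members) and 4 lower (18.2%, against 6.61%). The median ratio was -0.09. The ligand TGFB3 had 291, 142 and 51 counts and the receptor TGFBR1 1094, 716 and 333, so both siRNA libraries lay below the control and library 2 farther. TGFB3 was a member through library 1 alone, so the minimum count favoured its direction. BAMBI, a decoy receptor, had 212, 124 and 360 counts.

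In 5 lists no member was 2-fold apart: epithelial genes, mitochondrial genome transcripts, heat shock proteins and chaperones, the DNA damage response and nonsense-mediated decay factors. The 13 mitochondrial transcripts listed had a median ratio of 0.05, with medians of -0.40 and -0.38 against the control. All 13 lay below the control in library 1, and 12 did so in library 2. The other was MT-ND6, a complex I subunit, with 226, 151 and 273 CPM. The mitochondrial ribosomal RNA MT-RNR1, outside this list, had 31993, 34239 and 46760 counts. Its log2 differences from the control were 0.01 in library 1 and 0.32 in library 2. Among 31 proteasome subunits, PSMC1 and PSMD4 (3374, 3513 and 1398 counts) were at least 2-fold lower in library 2 and 0 higher, with a median of 0.09.

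Mitotic genes were mostly lower in library 2, by less than 2-fold. Of 43 members 31 had a ratio below 0, with a median of -0.28, while 2 were at least 2-fold higher in library 2 (4.65%, near the 4.77% over all members) and 0 lower. HJURP, the chaperone of the centromeric histone, had 2070, 516 and 1169 counts, and the kinase gene AURKB 646, 342 and 831, both lowest in library 1. The median ratio of 42 DNA replication genes was 0.02, with 0 at least 2-fold higher and 4 lower, among them CDC6 (1852, 1789 and 943 counts) and FEN1, whose ratio is uncertain because it shares exons with FADS2. Of 19 genes for G1 cyclins, their kinases and inhibitors, 3 were at least 2-fold higher (15.8%, against 4.77%) and 0 lower, with a median of 0.13. They were CDKN1A, the p21 inhibitor of cyclin-dependent kinases (2935, 790 and 1773 counts), the inhibitor CDKN2B (238, 249 and 559), and the transcription factor E2F3 (1420, 555 and 1457). Library 1 was the one below the control for CDKN1A and E2F3, though CDKN1A was also below it in library 2 (log2 difference -0.95).

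Of 13 H2A deubiquitinases 3 were at least 2-fold apart (23.1%, against 11.4% over all members), and 1 of these was the targeted gene. USP16 was the 1 gene at least 2-fold higher in library 2, while USP51 (53, 109 and 39 counts) and USP11 (1131, 1653 and 774) were at least 2-fold lower. USP51 was a member through library 1 alone, so the minimum count favoured its direction. BAP1, which opposes the same H2A mark, had 987, 932 and 1156 counts. Of 33 Polycomb subunits, RYBP (764, 431 and 1149 counts) and SUZ12 (1336, 787 and 1752) were at least 2-fold higher (6.06%, near the 4.77% over all members) and 0 lower, with a median ratio of -0.09. RNF2, the ubiquitin ligase that places the mark, had 603, 692 and 632 counts. The variant histones H2AFY2 (448, 692 and 197 counts) and H1FX (1326, 1034 and 320) were lower in library 2. Of 12 HOX gene members, 1 was at least 2-fold higher (8.33%, against 4.77%) and 0 lower, with a median ratio of -0.07. It was HOXB9, with 19, 38 and 168 counts, a member through library 2 alone.

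Several hormone and neuroendocrine genes were higher in library 2, though only 7 of 26 listed were members. Of these 4 were at least 2-fold higher and 0 lower, and 3 had a ratio below 0. CGA and PCSK1 were members through library 2 alone, so the minimum count favoured their direction. Besides CGA they were UCHL1, a ubiquitin hydrolase of neurons (2956, 2059 and 6194 counts), CHGB, a granin of secretory granules (1509, 1663 and 5103), and PCSK1, a prohormone convertase (34, 20 and 105). SCG2, another granin, was higher in library 1 (760, 1566 and 937).

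As classes, long intergenic and antisense RNAs leaned toward library 2. Among 115 long intergenic RNAs 18 were at least 2-fold higher and 4 lower (19.1% either way), with a median ratio of 0.30. Among 110 antisense RNAs 13 were higher and 1 lower (12.7% either way), with a median of 0.36. Over all members 4.77% were at least 2-fold higher and 6.61% lower, 11.4% either way. The members of both classes had medians above the control in each siRNA library. The medians in library 1 and library 2 were 0.29 and 0.61 for intergenic RNAs and 0.22 and 0.77 for antisense RNAs. Members were chosen by their counts in the siRNA libraries and not in the control. For genes near the minimum count this choice favoured levels above the control. Its part in these medians was not tested, so they are not read as a trait of the classes. Protein-coding members numbered 10903, with 488 higher, 730 lower and a median of -0.03. The 277 processed pseudogenes had 11 higher and 27 lower, with a median of -0.03. The 6 intergenic RNAs with the most counts, named after their values were seen, did not all share this direction. LINC00657, which had the most, was lower in library 2, with 5381, 9434 and 8117 counts and a log2 ratio of -0.35. The nuclear RNAs NEAT1 (2324, 1705 and 4202 counts) and MALAT1 (1250, 1788 and 3965) were at least 2-fold higher, as was MEG3 (556, 643 and 1438). LINC00969 and EBLN3 had log2 ratios of 0.18 and 0.23. Where reads were counted without strand, an antisense RNA and its partner cannot be told apart.

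Some of the largest ratios belonged to genes that share exons with a neighbour on the same strand. Such sharing applied to 1575 members (13.4%) and to 164 of the 1333 members at least 2-fold apart. When their counts were added to those of their partners, 78 of the 164 were under 2-fold. RP11-864I4.1 had 67, 101 and 5152 counts while EEF1G, an elongation factor gene that shares its exons, had 9025, 6777 and 2371; added to its partners, the log2 ratio of RP11-864I4.1 went from 5.51 to -0.01. BLOC1S5-TXNDC5, a readthrough of neighbouring genes, had 0, 0 and 2627 counts, at least 798-fold higher in library 2 against a floor of 3 counts per library. TXNDC5 itself had 3925, 3818 and 424, and its log2 ratio went from -3.30 to -0.46 when the readthrough was added. Only 3 members had 0 counts in a siRNA library, and all 3 share exons.

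The ratio between the libraries also varied with base composition. Its median was 0.14 over the 20% of members with the lowest GC content and -0.19 over the 20% with the highest. Of the 2339 genes with the highest GC content, 69 (2.95%) reached 2-fold in the higher direction and 223 (9.53%) in the lower. Across 11694 genes, which are not independent replicates, Spearman's rho with GC content was -0.19 for the ratio, -0.08 for library 1 against the control and -0.23 for library 2. With transcript length rho was 0.03. Centred within 20 bins of GC content, an alternative chosen after seeing the data, 560 members were at least 2-fold higher and 725 lower. The part of base composition in single genes was not tested.

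**Figure D5:**
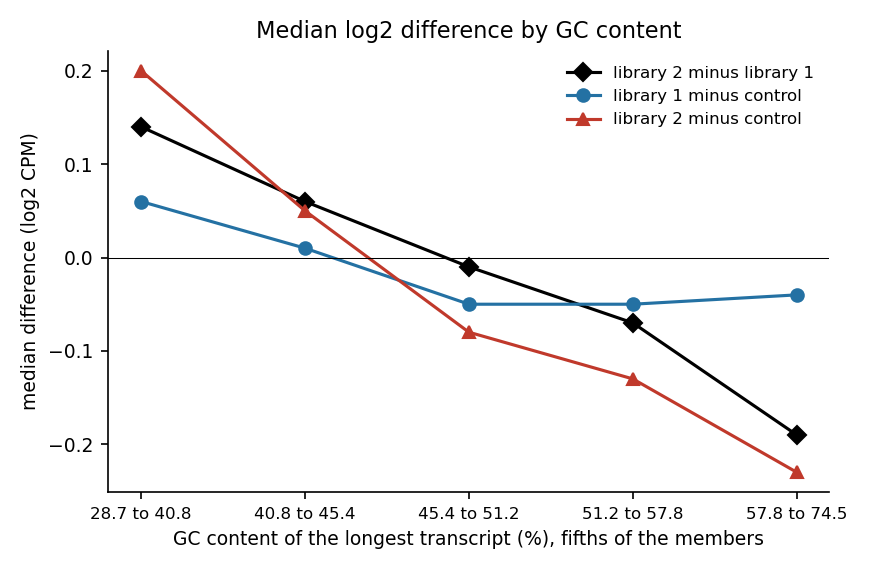
Median log2 CPM difference in 5 equal groups of members by GC content of the longest transcript, for library 2 against library 1 and for each against the control. The library 2 to library 1 median runs from 0.14 in the group with the least GC to -0.19 in the group with the most, and library 2 shows the steeper course against the control.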

How the data were processed

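The deposited files hold whole-number read counts per gene for 50868 Ensembl genes in 3 libraries, with symbols. Per the submitters' processing notes, HISAT2 2.0.4, StringTie 1.3.0 and the build hg38 were used; how reads were counted, with or without strand, is not given in the sources used here. Positions, types, lengths and GC content came from GENCODE 29, which matched 11696 members (99.8%). Scaling factors (TMM, edgeR 4.0.16 in R 4.3.3) were computed over 17287 genes and were 0.952, 1.02 and 1.03. Log2 ratios used a prior count of 2, and 2-fold was the threshold for every count of genes. No test across genes was made, because each side has 1 library. Ratios carry exact binomial and levels exact Poisson 95% intervals. The ratio step was tested on simulated counts.

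The genes described, and 52 gene lists with 5 marker lists, were chosen with earlier results of these data known. Genes named are USP16; the 20 highest and 20 lowest ratios among members with a mean of at least 250 counts and no shared exons; the 10 largest CPM differences each way; the 4 largest ratios in every list; 10 genes known to differ; overlapping genes and copies of these. Some genes that this rule names are left out of the text. Other list members are named as contrasts, chosen after their values were seen. Members just above the minimum (227 with fewer than 110 counts in the higher library) had a median ratio of -0.10 and an SD of 0.85; 258 genes just below it had -0.09 and 0.82. Alternatives were other scalings, prior counts, minimum counts, treatments of shared exons, and protein-coding genes only.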

Additional observations from a re-analysis of the deposited data

How the results depend on the processing

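The numbers of members at least 2-fold apart (559 higher, 774 lower) and of those with library 2 alone (608) or library 1 alone (270) beyond 2-fold from the control stayed within 1.5 times of these values under other scalings, prior counts of 0.5 and 10, minimum counts of 50 and 200, a mean of 100 counts, both treatments of shared exons, protein-coding genes only and GC centring. The exceptions were 2 settings. With no filter on low counts, 2260 genes were higher and 2379 lower, with library 2 alone beyond 2-fold for 1948 and library 1 alone for 1401, so the excess of library 2 was smaller there. When the whole counting interval had to lie beyond 2-fold, 315 were higher and 456 lower, with library 2 alone for 402. USP16 ranged from 0.97 to 1.04 in log2 ratio. Under the settings run on them, 0 of the named genes changed the sign of their ratio. The median changed sign in 7 of 52 lists, all with small medians: mitochondrial transcripts, hypoxia-induced genes, DNA replication, HOX genes (-0.07 to 0.06), SR proteins and hnRNPs, aminoacyl-tRNA synthetases and the BCL2 family. Other small list medians moved by over 1.5 times without a change of sign: ribosome assembly ran from 0.06 to 0.12, ATF4 targets from 0.05 to 0.16, NRF2 targets from -0.22 to -0.02, ERK feedback genes from 0.13 to 0.26, autophagy and lysosome genes from 0.05 to 0.18, G1 cyclins and their partners from 0.06 to 0.16, proteasome subunits from 0.04 to 0.12, Polycomb subunits from -0.09 to -0.01, and matrix glycoproteins from -0.22 to -0.02. No paired analysis was possible because the comparison is between replicate numbers of 1 group. Leaving out either siRNA library leaves no comparison. Depth limits genes near 100 counts, where counting error alone is wide.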
